A study of Danio rerio with 16 samples.

Results

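The effect of chronic cortisol was examined in zebrafish larvae that carry the glucocorticoid receptor (GR). The comparison rests on 8 of the 16 libraries of the series, namely the 4 labelled VBA plus and cortisol against the 4 labelled VBA plus and DMSO, the solvent used as vehicle. VBA stands for visual background adaptation, the camouflage response in which melanophores disperse on a light background, and larvae that lack a working GR fail in it. Parents of the AB strain were heterozygous for GR369-, in which a frameshift interrupts nr3c1, the GR gene. Sorting at 4 days post fertilization (dpf) therefore left both wild type larvae and heterozygotes in the VBA+ class, and no library holds wild type larvae alone. The treated group developed in 1 uM cortisol from about 4 hours after fertilization and the control group in DMSO, under a light and dark cycle, and whole larvae were frozen at 5 dpf in the morning. Each library is a pool of 8 larvae. All 4 pools of a condition came from a single dish and were collected in sequence, so that the effects of dish, time of collection and cortisol cannot be told apart, and the p-values given here measure the spread between pools of a dish.

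Cortisol is the main glucocorticoid of fish and humans. It binds the GR, a nuclear receptor that then moves to the nucleus, binds glucocorticoid response elements in DNA and changes transcription of its target genes. In vertebrates the hormone is known to raise hepatic glucose output and amino acid breakdown, to restrain inflammation and growth, to promote ion uptake by ionocytes in the skin and gills of fish, and to feed back on the hypothalamus and pituitary.

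Values are given as the deposited log2 of the normalized count plus 0.1, one value per gene and library, and a fold change is the cortisol mean minus the vehicle mean on that log2 scale with its standard error (SE). The authors' normalization gave all libraries an identical distribution, in which the normalized counts sum to 14653434 and 310 genes are at 0, so the sequencing depth behind a value is unknown. It also put the most abundant genes on shared steps, with 10 genes at each of the levels 17.51, 16.89, 16.13, 15.54, 15.21, 14.84, 14.69 and 14.52. Fold changes of such genes are differences between steps, and their SEs reflect the steps as well. Of 12 markers chosen to check that the pools are whole larvae, 11 were matched, covering neurons, rods, lens, fast muscle, heart, liver, exocrine pancreas, skin, erythrocytes, cartilage and melanophores. Each had at least 1 gene copy at a log2 value of 7.52 or more in all 8 libraries. In pools of whole larvae a lower value can mean fewer cells of a type or less RNA per cell, and these cannot be told apart.

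Cortisol was accompanied by widespread changes. Of 21644 genes tested with limma, 1806 (8.34%) were called. A call required an adjusted p no higher than 0.05, a log2 fold change of at least 0.5 in size, an SE under 1 and normalized counts that averaged 75 or more. A total of 797 genes (3.68% of those tested) were higher and 1009 (4.66%) lower in cortisol. Among the 13724 genes that reached the mean of 75, these shares were 5.81% and 7.35%. Most changes were small: 142 genes were higher by at least 1 on the log2 scale and 67 lower by as much. The 4 cortisol libraries did not overlap the 4 vehicle libraries for 1551 of the called genes, and over all tested genes the groups did not overlap for 20.3%.

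The libraries were not alike within groups, and this touches most results. Along the direction of the cortisol effect, scaled so that the vehicle mean is 0 and the cortisol mean is 1, vehicle replicates 1 to 4 scored -0.24, -0.11, 0.17 and 0.18 and cortisol replicates 1 to 4 scored 1.27, 1.24, 0.82 and 0.67. Replicates 1 and 2 thus stood farther apart between treatments than replicates 3 and 4. All 1806 called genes had the same sign in both sets, but they were called on these same libraries, so this is not a separate test. Their median size was 0.97 in replicates 1 and 2 and 0.40 in replicates 3 and 4. Replicate numbers do not pair vehicle with cortisol libraries, so both sets are descriptions and not matched experiments. Replicates 1 and 2 set the lowest vehicle scores against the highest cortisol scores. The number of calls was 463 without vehicle replicate 1, 710 without vehicle replicate 2, 462 without cortisol replicate 1 and 437 without cortisol replicate 2, and it was 2945 without cortisol replicate 4. With all 16 libraries of the series in the fit, which share an estimate of the spread, 21 genes were called, and 38 were called within replicates 3 and 4 alone. In all 8 fits that left out a library, 371 genes (100 higher and 271 lower) were called. No batch is stated for these libraries. Values of long and short genes can also differ with RNA quality, and this was not tested. For the main gene lists below, the number of calls made in all of these 8 fits is given as well.

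Organs and pathways were described with 41 lists of genes, chosen with earlier results of these data known. Each list is summarized by the number of members called, by its median log2 fold change and by its level in each library, which is the median over members of the log2 value minus the gene's vehicle mean. The median over all genes tested was -0.01. A list's percent is of its members tested, and the same share over all genes tested was 3.68% higher and 4.66% lower. Only genes with a mean of at least 75 could be called, and among all of these 5.81% were higher and 7.35% lower. Lists differ in how many members reached that mean, and several lie near these shares. The median of 10 lists was higher in all 4 cortisol libraries than in any vehicle library, that of 6 lists was lower, and for 25 lists the groups overlapped. The lists with the highest medians were the pancreatic digestive enzymes and the immediate early genes, and those with the lowest were the mitochondrial respiratory chain, the proteasome and the cell cycle.

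**Figure D1:**
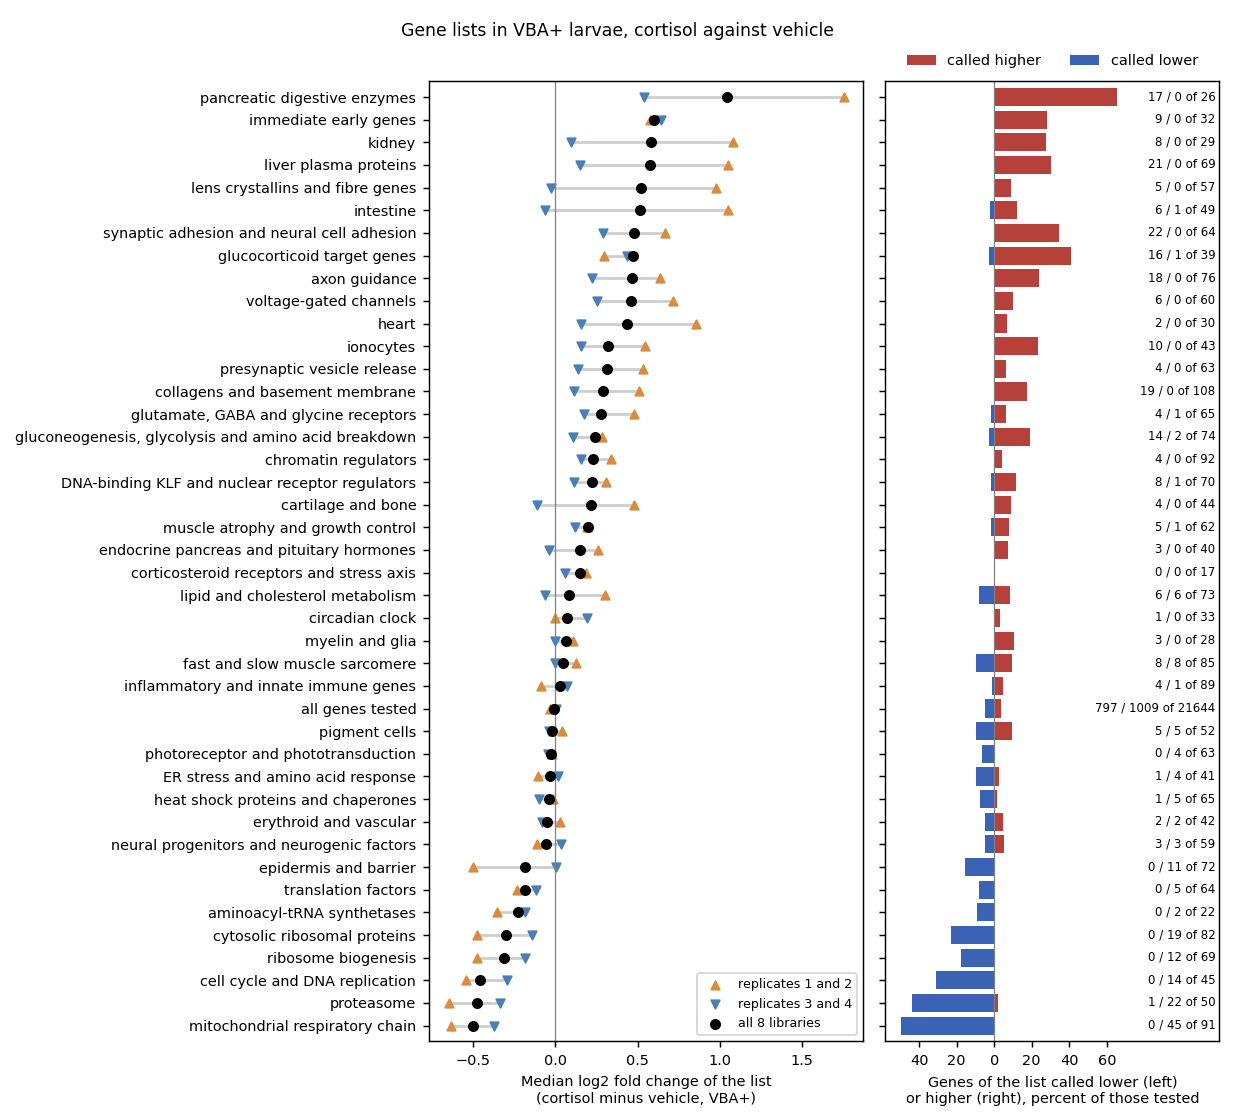
Left, median log2 fold change (cortisol minus vehicle, VBA+) of each gene list over all 8 libraries (circles), replicates 1 and 2 (upward triangles) and replicates 3 and 4 (downward triangles); right, the percent of tested members called higher or lower, with the counts higher / lower of the number tested. Pancreatic enzymes lie highest at 1.04 with 17 of 26 genes called, the respiratory chain lies lowest at -0.50 with 45 of 91 called, and most lists lie farther from 0 in replicates 1 and 2.

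**Figure D2:**
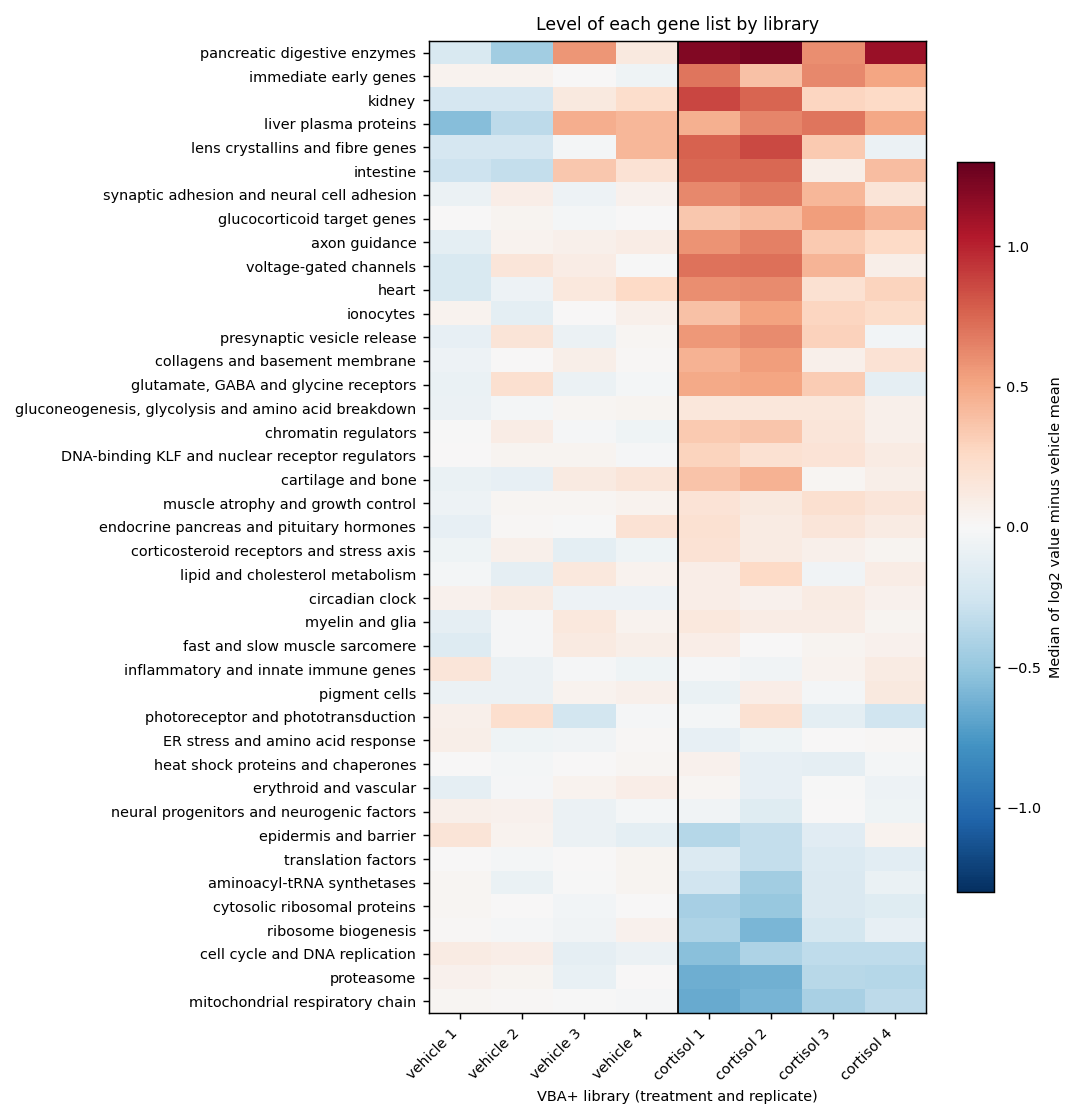
Level of each gene list in the 8 VBA+ libraries, as the median over its tested members of the log2 value minus the gene's mean over the 4 vehicle libraries (red higher, blue lower). Immediate early genes and glucocorticoid targets are raised in all 4 cortisol libraries and near 0 in vehicle, whereas liver plasma proteins in vehicle replicates 3 and 4 (0.47 and 0.43) lie near the lowest cortisol level (0.47).

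The receptor genes themselves changed little. NR3C1 (ENSDARG00000025032), which encodes the GR, had log2 values of 9.52, 9.42, 9.20 and 9.18 in vehicle and 9.49, 9.44, 9.59 and 9.39 in cortisol. The groups overlapped, and the log2 fold change was 0.15 ± 0.10 (SE, limma adjusted p = 0.302). NR3C2 (ENSDARG00000102082), the mineralocorticoid receptor, which also binds cortisol, differed by 0.34 ± 0.18 (limma adjusted p = 0.196). None of the 17 tested genes of the list of corticosteroid receptors and the stress axis was called, although 10 of them were under the mean count needed for a call. The 2 with the smallest p were the hypothalamic neuropeptide genes oxt (ENSDARG00000042845), which encodes the fish oxytocin, and avp (ENSDARG00000058567), which encodes vasotocin. oxt had log2 values of 4.81, 4.91, 5.09 and 5.25 in vehicle and 6.0, 6.07, 5.73 and 5.59 in cortisol, with no overlap and a fold change of 0.83 ± 0.18 (limma adjusted p = 0.0216), but its mean was too low for a call. avp had a fold change of -1.03 ± 0.39 (limma adjusted p = 0.0942) and its groups overlapped only at 3.82, the value of vehicle replicate 3 and cortisol replicate 2.

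Known glucocorticoid targets were higher as a group. Of 39 genes tested, 16 were called higher and 1 lower. The shares were 3.68% and 4.66% of all genes, and 5.81% and 7.35% of those with a mean of at least 75. Of these 17 calls, 11 (10 higher, 1 lower) were made in every fit that left out a library. The groups did not overlap for 20 genes that were higher in cortisol, against 8.48% of all genes and 1482 of the 13724 with a mean of at least 75. Without cortisol replicate 2, 13 were called higher, against 0.564% of all genes and 122 of those 13724. In the 4 cortisol libraries the level of the list was between 0.35 and 0.54, and it was between -0.03 and 0.04 in vehicle. Unlike most lists, its median was larger in replicates 3 and 4 (0.44) than in replicates 1 and 2 (0.29), with a median of 0.47 over all libraries. Several members encode transcription factors. KLF9 (ENSDARG00000068194), a Krüppel-like zinc finger factor and direct GR target, had log2 values of 8.28, 8.16, 7.85 and 8.35 in vehicle and 8.76, 9.07, 9.63 and 9.74 in cortisol. The groups did not overlap, cortisol replicates 3 and 4 were the highest, and the fold change was 1.14 ± 0.21 (limma adjusted p = 0.0126). KLF15 (ENSDARG00000091127), a factor of muscle and liver metabolism in mammals, rose by 0.60 ± 0.11 (limma adjusted p = 0.014).

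The paired copies klf2a and klf2b, whose mammalian counterpart responds to blood flow in endothelium, moved in opposite directions. klf2a (ENSDARG00000042667) was at 8.75, 9.26, 8.23 and 8.29 in vehicle and at 9.88, 10.01, 10.42 and 10.58 in cortisol, a rise of 1.59 ± 0.23 (limma adjusted p = 0.00834). klf2b (ENSDARG00000040432) was at 9.34, 9.38, 9.52 and 9.04 in vehicle and at 8.38, 8.28, 8.27 and 8.75 in cortisol, a fold change of -0.90 ± 0.13 (limma adjusted p = 0.00909). Neither copy overlapped between groups, and both were called in each fit that left out a library. In the wider list of KLF factors and nuclear receptors, 8 of 70 genes were called higher and 1 lower, klf2b. NR4A1 (ENSDARG00000000796), an inducible orphan nuclear receptor, rose by 1.11 ± 0.18 (limma adjusted p = 0.0109). PPARD (ENSDARG00000044525), a fatty acid sensing receptor, rose by 0.82 ± 0.17 (limma adjusted p = 0.0187).

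Other targets act on signalling or on the receptor itself. SOCS3 (ENSDARG00000025428), an inhibitor of cytokine signalling through JAK and STAT, had log2 values of 7.48, 7.21, 7.07 and 6.53 in vehicle and 8.55, 8.15, 8.36 and 8.62 in cortisol. Its fold change was 1.35 ± 0.19 (limma adjusted p = 0.0079). DUSP1 (ENSDARG00000100515), a phosphatase of MAP kinases, was at 8.90, 9.13, 8.88 and 9.04 in vehicle and 9.83, 9.80, 10.12 and 10.31 in cortisol, a rise of 1.03 ± 0.12 (limma adjusted p = 0.00494). Neither gene overlapped between groups. tsc22d3 (ENSDARG00000075666), known in mammals as GILZ, an anti-inflammatory leucine zipper protein, rose by 0.51 ± 0.09 (limma adjusted p = 0.0124), just past the limit on size. FKBP5 (ENSDARG00000028396), a co-chaperone that lowers GR affinity and a widely used marker of GR activity, was not called. Its log2 values were 8.99, 8.42, 8.71 and 8.94 in vehicle and 8.61, 9.47, 9.25 and 9.39 in cortisol. Cortisol replicate 1 lay within the vehicle range, the other 3 lay above it, and the fold change was 0.42 ± 0.19 (limma adjusted p = 0.15).

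The circadian clock list moved little, with 1 of 33 genes called. That gene was nr1d2a (ENSDARG00000003820), a repressor of the clock, at 10.02, 10.04, 9.49 and 9.71 in vehicle and 10.45, 10.49, 10.57 and 10.70 in cortisol, a rise of 0.74 ± 0.12 (limma adjusted p = 0.011). Of the copies of the clock repressor PER1, a GR target in mammals, ENSDARG00000056885 differed by 0.35 ± 0.09 (limma adjusted p = 0.0331) with no overlap but under the limit on size, and ENSDARG00000012499 by 0.01 ± 0.07 (limma adjusted p = 0.949).

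Immediate early genes, which neurons and other cells switch on within minutes of stimulation, were among the largest and most even rises. Of 32 genes tested, 9 were called higher and none lower, and 7 of the 9 were called in every fit that left out a library. The list's level was 0.70, 0.38, 0.63 and 0.51 in cortisol replicates 1 to 4 and between -0.05 and 0.05 in vehicle. Its median was 0.57 in replicates 1 and 2 and 0.64 in replicates 3 and 4. NPAS4 (ENSDARG00000055752), a transcription factor induced by neuronal activity, had log2 values of 6.02, 5.96, 5.78 and 5.25 in vehicle and 8.52, 8.12, 8.43 and 7.67 in cortisol. Its fold change of 2.43 ± 0.22 (limma adjusted p = 0.00115) was the third largest among called genes without overlap. The other copy, ENSDARG00000087753, did not exceed a log2 value of 3.71 in any library, was listed at 0 in vehicle replicate 4, and was not called.

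FOS (ENSDARG00000031683), a subunit of the AP-1 transcription factor, was at 5.59, 5.59, 6.0 and 5.91 in vehicle and 7.97, 7.90, 7.97 and 7.64 in cortisol, a rise of 2.1 ± 0.14 (limma adjusted p = 0.000475). egr4 (ENSDARG00000077799), a zinc finger factor of the same early wave, was at 5.56, 4.91, 4.81 and 5.40 in vehicle and 6.97, 7.10, 6.85 and 7.29 in cortisol, a rise of 1.88 ± 0.20 (limma adjusted p = 0.00322). Its relative egr1 (ENSDARG00000037421) was at 8.82, 8.87, 8.58 and 8.55 in vehicle and 10.31, 10.14, 9.80 and 9.68 in cortisol, a rise of 1.27 ± 0.14 (limma adjusted p = 0.00444). For all of these, each cortisol library exceeded every vehicle library by more than the range within either group. ier2b (ENSDARG00000086881), another early response gene, rose by 1.16 ± 0.14 (limma adjusted p = 0.00494).

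**Figure D3:**
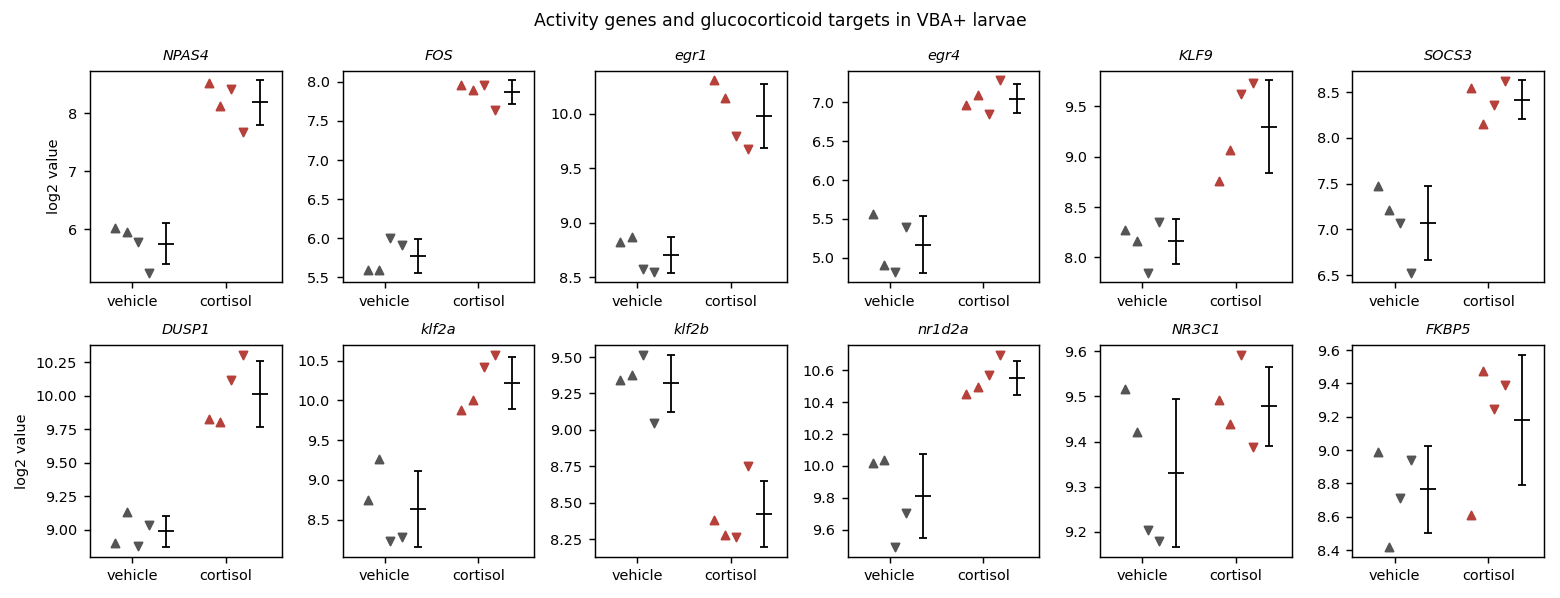
Deposited log2 values of 12 genes in VBA+ larvae, 1 point per library (upward triangles replicates 1 and 2, downward triangles replicates 3 and 4), with the mean and SD (n = 4) to the right of each group. NPAS4 (ENSDARG00000055752), FOS, egr1, egr4, KLF9, SOCS3, DUSP1, klf2a and nr1d2a are higher in all 4 cortisol libraries, klf2b is lower, and NR3C1 and FKBP5 overlap; axes do not start at 0.

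Genes of the exocrine pancreas, whose acinar cells make the digestive enzymes, had the highest median of all lists. Of 44 symbols in the list 25 were matched, and of 26 genes tested 17 (65.4%) were called higher and none lower. The median was 1.04, but it was 1.75 in replicates 1 and 2 and 0.54 in replicates 3 and 4, and only 4 genes were called in every fit that left out a library. The list's level was 1.21, 1.24, 0.61 and 1.12 in cortisol replicates 1 to 4 and -0.20, -0.45, 0.57 and 0.13 in vehicle, so that vehicle replicate 3 nearly reached cortisol replicate 3. CPA1 (ENSDARG00000021339), a carboxypeptidase, was at 10.91, 10.05, 12.73 and 11.66 in vehicle and 13.86, 13.86, 12.78 and 13.16 in cortisol, a rise of 2.07 ± 0.48 (limma adjusted p = 0.0239). ctrl (ENSDARG00000068680), which encodes a chymotrypsin-like protease, was at 9.03, 8.23, 10.64 and 9.39 in vehicle and 11.99, 11.75, 10.91 and 11.19 in cortisol, a rise of 2.14 ± 0.43 (limma adjusted p = 0.0169). Groups did not overlap for either gene, although vehicle replicate 3 came close to cortisol replicate 3 in both. cela1.4 (ENSDARG00000043171), an elastase gene, rose by 2.02 ± 0.43 (limma adjusted p = 0.0201).

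Many liver genes were higher, mostly against the vehicle pools of replicates 1 and 2. Of 69 tested genes for plasma proteins made by hepatocytes, 21 were called higher and none lower, with a median of 0.57. The list's level was 0.47, 0.63, 0.70 and 0.50 in cortisol and -0.56, -0.34, 0.47 and 0.43 in vehicle replicates 1 to 4, so that the groups overlapped. The median was 1.05 in replicates 1 and 2 and 0.15 in replicates 3 and 4, and 1 of the 21 genes was called in every fit that left out a library. That gene, c3b.2 (ENSDARG00000001818), encodes a complement component C3 and was at 7.19, 7.52, 8.79 and 9.20 in vehicle and 10.47, 10.62, 10.101 and 9.88 in cortisol, a rise of 2.09 ± 0.39 (limma adjusted p = 0.014). Its neighbour in name, c3b.1 (ENSDARG00000093068), rose by 1.85 ± 0.37 and c3a.3 (ENSDARG00000052207) by 1.50 ± 0.40 (limma adjusted p = 0.017 and 0.0347). f5 (ENSDARG00000055705), coagulation factor V, rose by 1.49 ± 0.31 (limma adjusted p = 0.0187). Whether reads were shared among the copies of C3 was not tested, and their separate values are uncertain for that reason. A1CF (ENSDARG00000002968), which in mammals assists editing of apolipoprotein B mRNA, was among the 10 largest rises without overlap, at 1.89 ± 0.48 (limma adjusted p = 0.031).

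In gluconeogenesis, glycolysis and amino acid breakdown, 14 of 74 genes were called higher (18.9%, against 3.68% of all genes tested). Only 2 were called lower (2.7%, against 4.66%). Of the 74, 68 reached a mean of 75, and among all genes that did, 5.81% were higher and 7.35% lower. Most of the genes called higher act in liver or kidney. HAL (ENSDARG00000017444), which breaks down histidine, was at 6.69, 7.30, 8.23 and 8.16 in vehicle and 8.59, 8.54, 8.59 and 8.65 in cortisol, a rise of 1.00 ± 0.29 (limma adjusted p = 0.0438). The cortisol libraries were tightly grouped and the vehicle libraries were not, a pattern that g6pc1a.1, hpda and AGXT shared. g6pc1a.1 (ENSDARG00000031616), a glucose-6-phosphatase, rose by 0.99 ± 0.30 (limma adjusted p = 0.0479). hpda (ENSDARG00000018351), of tyrosine breakdown, rose by 0.88 ± 0.23 (limma adjusted p = 0.0334). AGXT (ENSDARG00000018478), an aminotransferase, rose by 0.83 ± 0.19 (limma adjusted p = 0.023). PCK1 (ENSDARG00000013522), the gluconeogenic phosphoenolpyruvate carboxykinase and a classical GR target, rose by 0.75 ± 0.12 (limma adjusted p = 0.0107) and was the only gene of this list called in every fit that left out a library. A glucose-6-phosphatase copy outside the list, G6PC1 (ENSDARG00000013721), rose by 1.35 ± 0.16 (limma adjusted p = 0.0049) and was also called in each of those fits. PCK1 and G6PC1 are named after their values were seen. The 2 list members called lower encode enzymes of glycolysis and lactate metabolism. LDHB (ENSDARG00000019644), a lactate dehydrogenase, changed by -0.54 ± 0.13 and PGAM2 (ENSDARG00000057571), the muscle phosphoglycerate mutase, by -0.51 ± 0.08 (limma adjusted p = 0.0285 and 0.0103). LDHB was at the same value of 14.04 in all 4 vehicle libraries, so its SE is uncertain.

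Intestine, kidney and lens genes also differed mainly in replicates 1 and 2. In the intestine list 6 of 49 genes were called higher (12.2%, against 3.68% of all genes tested) and 1 lower (2.04%, against 4.66%). The list's median was 1.05 in replicates 1 and 2 and -0.06 in replicates 3 and 4. SLC6A19 (ENSDARG00000056719), a neutral amino acid transporter of the brush border, was at 7.24, 7.18, 8.65 and 8.42 in vehicle and 9.52, 9.49, 8.71 and 8.90 in cortisol, a rise of 1.28 ± 0.34 (limma adjusted p = 0.0345). The member that fell, lgals4 (ENSDARG00000104016), encodes a galectin and was at 8.31, 7.77, 8.07 and 8.00 in vehicle and 6.41, 6.32, 6.32 and 7.12 in cortisol. Its fold change of -1.49 ± 0.19 (limma adjusted p = 0.00648) was called in every fit that left out a library, and no other member's was. Kidney genes were called higher in 8 of 29 cases (27.6%), 1 of them in every such fit. Their medians were 1.08 and 0.10 in the first and last pairs of replicates. podxl (ENSDARG00000031228), of podocytes, rose by 0.72 ± 0.16 (limma adjusted p = 0.0217). Lens genes were called higher in 5 of 57 cases (8.77%), 0 of them in every such fit, with medians of 0.97 and -0.03. Groups did not overlap for 1 lens gene that was higher in cortisol, against 8.48% of all genes. BFSP1 (ENSDARG00000074919), a beaded filament protein of lens fibres, had the largest rise of all called genes without overlap. It was at 2.61, 4.18, 4.53 and 5.59 in vehicle and 9.29, 9.29, 6.80 and 5.76 in cortisol, a rise of 3.56 ± 0.83 (limma adjusted p = 0.0248) that was 5.89 in replicates 1 and 2 and 1.22 in replicates 3 and 4. crybb1l1 (ENSDARG00000007576), a beta crystallin, rose by 1.87 ± 0.54 (limma adjusted p = 0.0438), and its groups overlapped.

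Extracellular matrix genes were higher. Of 108 genes for collagens, laminins and other matrix and basement membrane proteins, 19 were called higher and none lower, and 6 of the 19 were called in every fit that left out a library. The median was 0.29, with 0.51 and 0.12 in the first and last pairs of replicates. FN1 (ENSDARG00000006526), fibronectin, was at 10.02, 10.45, 11.23 and 11.33 in vehicle and 12.94, 12.94, 12.28 and 12.04 in cortisol, a rise of 1.79 ± 0.30 (limma adjusted p = 0.011). col1a1a (ENSDARG00000012405), a chain of the main collagen of skin and bone, was at 14.15 in all 4 vehicle libraries and at 15.54, 15.54, 15.21 and 15.21 in cortisol. These are shared steps of the normalization, and the fold change was 1.23 ± 0.09 (limma adjusted p = 0.000722). thbs2b (ENSDARG00000073810), a thrombospondin, rose by 1.33 ± 0.31 (limma adjusted p = 0.0251). col9a1b (ENSDARG00000031483), a cartilage collagen, rose by 1.25 ± 0.36 (limma adjusted p = 0.0442), and cortisol replicate 4 at 10.36 lay below vehicle replicate 3 at 10.49. Cartilage and bone regulators were called higher in 4 of 44 cases (9.09%, against 3.68% of all genes tested), and 30 of the 44 reached a mean of 75. None was called in every fit that left out a library. The list's median turned from 0.48 in replicates 1 and 2 to -0.11 in replicates 3 and 4. The called genes included the hedgehog receptor PTCH1 and the chondrocyte factors SOX9 and SOX5, with rises between 0.52 and 0.55.

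In the list of endocrine pancreas, pituitary and growth hormones 3 of 40 genes were called higher (7.5%, against 3.68% of all genes tested) and none lower. Of the 40, 24 reached a mean of 75. igf2b (ENSDARG00000033307), an insulin-like growth factor, was at 8.15, 8.28, 8.39 and 8.31 in vehicle and 9.20, 9.10, 9.13 and 9.18 in cortisol. Both groups were tight, and the rise was 0.87 ± 0.08 (limma adjusted p = 0.00208), with 0.93 and 0.80 in the first and last pairs of replicates. IGFBP5 (ENSDARG00000039264) and IGFBP2 (ENSDARG00000031422), binding proteins of these factors, rose by 0.84 ± 0.18 and 1.43 ± 0.42 (limma adjusted p = 0.0187 and 0.0447). Among genes of muscle atrophy and growth control, 5 of 62 were called higher (8.06%, against the same 3.68%) and 1 lower. Of the 62, 53 reached a mean of 75. foxo3b (ENSDARG00000042904), a transcription factor of muscle wasting, rose by 0.59 ± 0.08 (limma adjusted p = 0.00799). DDIT4 (ENSDARG00000037618), an inhibitor of mTORC1 induced by stress and glucocorticoids, rose by 0.69 ± 0.15 (limma adjusted p = 0.0223), with 0.27 and 1.1 in the first and last pairs of replicates.

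Sarcomere genes were called higher in 8 of 85 cases and lower in 8 (9.41% each), with a median of 0.04. Among all genes tested the shares were 3.68% higher and 4.66% lower, and among those with a mean of at least 75 they were 5.81% and 7.35%. In the sarcomere list 82 of 85 reached that mean. The genes that were higher included structural proteins and slow myosins. smyhc1 (ENSDARG00000099959), a slow myosin heavy chain, was at 12.04, 12.18, 12.43 and 12.48 in vehicle and 13.39, 13.39, 13.03 and 12.87 in cortisol, a rise of 0.88 ± 0.14 (limma adjusted p = 0.0103). smyhc2 (ENSDARG00000103969), its relative, rose by 0.99 ± 0.22 and actn3a (ENSDARG00000013755), an alpha-actinin of the Z disc, by 0.86 ± 0.11 (limma adjusted p = 0.0228 and 0.00722). NEB (ENSDARG00000032630), nebulin, rose by 1.67 ± 0.37 (limma adjusted p = 0.0222), with vehicle replicate 3 and cortisol replicate 3 both at 14.84. The genes that were lower included myoglobin, myosin light chains and troponins. TNNT3 (ENSDARG00000068457), fast troponin T, was at 16.89 in all vehicle libraries and at the next lower step of 16.13 in all cortisol libraries, a change of -0.76 ± 0.06 (limma adjusted p = 0.000777). myoz1b (ENSDARG00000071445), a Z disc protein, changed by -0.68 ± 0.12, and pvalb3 (ENSDARG00000022817), a calcium binding parvalbumin, by -0.66 ± 0.14 (limma adjusted p = 0.0126 and 0.0213). In the heart list 2 of 30 genes were called higher (6.67%, against 3.68% of all genes tested) and none lower. Only 17 of the 30 reached a mean of 75. MYH6 (ENSDARG00000114031), an atrial myosin, rose by 0.76 ± 0.21 (limma adjusted p = 0.0391).

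Genes of neuronal wiring were higher as a class. Of 64 genes for synaptic and neural cell adhesion 22 were called higher and none lower, 61 had a positive fold change, and the median was 0.48. The list's level in cortisol was 0.63, 0.68, 0.43 and 0.16 in replicates 1 to 4, all above the vehicle range of -0.08 to 0.08. CADM2 (ENSDARG00000009930), a synaptic adhesion molecule, was at 5.53, 5.46, 5.40 and 5.59 in vehicle and 7.07, 7.21, 6.81 and 5.93 in cortisol. Its rise of 1.26 ± 0.25 (limma adjusted p = 0.0165) was carried by cortisol replicates 1 to 3, with replicate 4 nearest to vehicle. nlgn3b (ENSDARG00000062376), a neuroligin of the postsynaptic membrane, was at 7.52, 7.60, 7.68 and 7.97 in vehicle and 8.81, 8.63, 8.56 and 8.27 in cortisol, a rise of 0.88 ± 0.14 (limma adjusted p = 0.0103). DSCAM (ENSDARG00000028118), which acts in self-avoidance of neurites, rose by 0.92 ± 0.23 (limma adjusted p = 0.0305), and ptprsa (ENSDARG00000059738), a receptor phosphatase of presynaptic assembly, by 0.89 ± 0.19 (limma adjusted p = 0.0196). Only 2 of the 22 were called in every fit that left out a library.

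Axon guidance genes had 18 of 76 called higher and none lower, with a median of 0.47. They comprised cues and receptors alike. NTN1 (ENSDARG00000022531), the cue netrin, rose by 0.91 ± 0.24 with overlapping groups, and SLIT1 (ENSDARG00000044954), a repellent cue, by 0.90 ± 0.20 without overlap (limma adjusted p = 0.0335 and 0.0213). nrp1b (ENSDARG00000027290) and PLXNA2 (ENSDARG00000060372), receptor subunits for semaphorins, both rose by 0.86, with SEs of 0.18 and 0.25 (limma adjusted p = 0.0187 and 0.0442). None of the 18 was called in every fit that left out a library. Voltage-gated channels had 6 of 60 called higher (10.0%, against 3.68% of all genes tested) and none lower, with a median of 0.46. Only 30 of the 60 reached a mean of 75. The list's level overlapped between groups, with cortisol replicate 4 at 0.08 and vehicle replicate 2 at 0.16. SCN2B (ENSDARG00000101713), an auxiliary subunit of sodium channels, rose by 0.94 ± 0.17, and CACNA1G (ENSDARG00000089913), a T-type calcium channel, by 0.71 ± 0.12 (limma adjusted p = 0.0126 and 0.0109). Both were called in all of those fits, and no other member of the list was.

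Genes of synaptic transmission had few calls, but most had a positive fold change. Genes of presynaptic release were called higher in 4 of 63 cases (6.35%, against 3.68% of all genes tested) and lower in none. Of the 63, 54 had a positive fold change and 51 reached a mean of 75. Their median of 0.31 was 0.53 in the first and 0.14 in the last pair of replicates. SLC17A6 (ENSDARG00000001127), the vesicular glutamate transporter of excitatory neurons, rose by 0.77 ± 0.17 and SLC6A5 (ENSDARG00000067964), the glycine transporter of inhibitory neurons, by 0.76 ± 0.23 (limma adjusted p = 0.0227 and 0.0484). Receptors for glutamate, GABA and glycine had 4 of 65 called higher (6.15%) and 1 lower. Of the 65, 60 had a positive fold change and 47 reached a mean of 75, and the median was 0.28. No member of either list was called in every fit that left out a library. Both subunits of the metabotropic GABA receptor were among the receptor genes called higher. gabbr1b (ENSDARG00000016667) was at 6.02, 6.78, 6.77 and 6.72 in vehicle and 8.07, 7.87, 7.41 and 6.93 in cortisol, a rise of 1.00 ± 0.25, and GABBR2 (ENSDARG00000061042) rose by 0.68 ± 0.15 (limma adjusted p = 0.0312 and 0.0206). The receptor gene called lower was glra4a (ENSDARG00000006865), a glycine receptor subunit, at -0.54 ± 0.14 (limma adjusted p = 0.0316). In glia, SLC1A2 (ENSDARG00000102453), which clears glutamate from the synapse, rose by 0.86 ± 0.20 (limma adjusted p = 0.0238), and cortisol replicate 4 equalled vehicle replicate 4 at 12.04.

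Neural progenitor and neurogenic genes were called in both directions, with few calls in each. FABP7 (ENSDARG00000034650), a marker of radial glia, was at 8.18, 8.19, 7.99 and 7.95 in vehicle and 6.83, 6.46, 7.20 and 7.44 in cortisol, a change of -1.09 ± 0.19 (limma adjusted p = 0.0117). her4.2 (ENSDARG00000094426) and her15.1 (ENSDARG00000054562), Notch effectors of neural progenitors, changed by -0.87 ± 0.22 and -0.78 ± 0.19 (limma adjusted p = 0.0295 and 0.0269). ELAVL3 (ENSDARG00000014420) and ELAVL4 (ENSDARG00000045639), RNA binding proteins of differentiated neurons, rose by 0.60 ± 0.16 and 0.71 ± 0.19 (limma adjusted p = 0.0367 and 0.0347), with overlap in both through cortisol replicate 4. NOTCH1 (ENSDARG00000052094), the receptor upstream of the her genes, rose by 0.58 ± 0.12 (limma adjusted p = 0.0165). The list as a whole had 3 of 59 called in each direction (5.08%) and a median of -0.06. Among all genes tested, 3.68% were higher and 4.66% lower. Among those with a mean of at least 75, which 54 of the 59 reached, the shares were 5.81% and 7.35%. In every fit that left out a library, 0 of the list were called higher and 1 lower. In the photoreceptor list 4 of 63 genes were called lower (6.35%, against 4.66% of all genes tested) and none higher, and 51 reached a mean of 75. The median was -0.03, and 26 of the 63 had a positive fold change. GNGT2 (ENSDARG00000010680), a transducin subunit of cones, changed by -0.76 ± 0.19 (limma adjusted p = 0.0314).

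**Figure D4:**
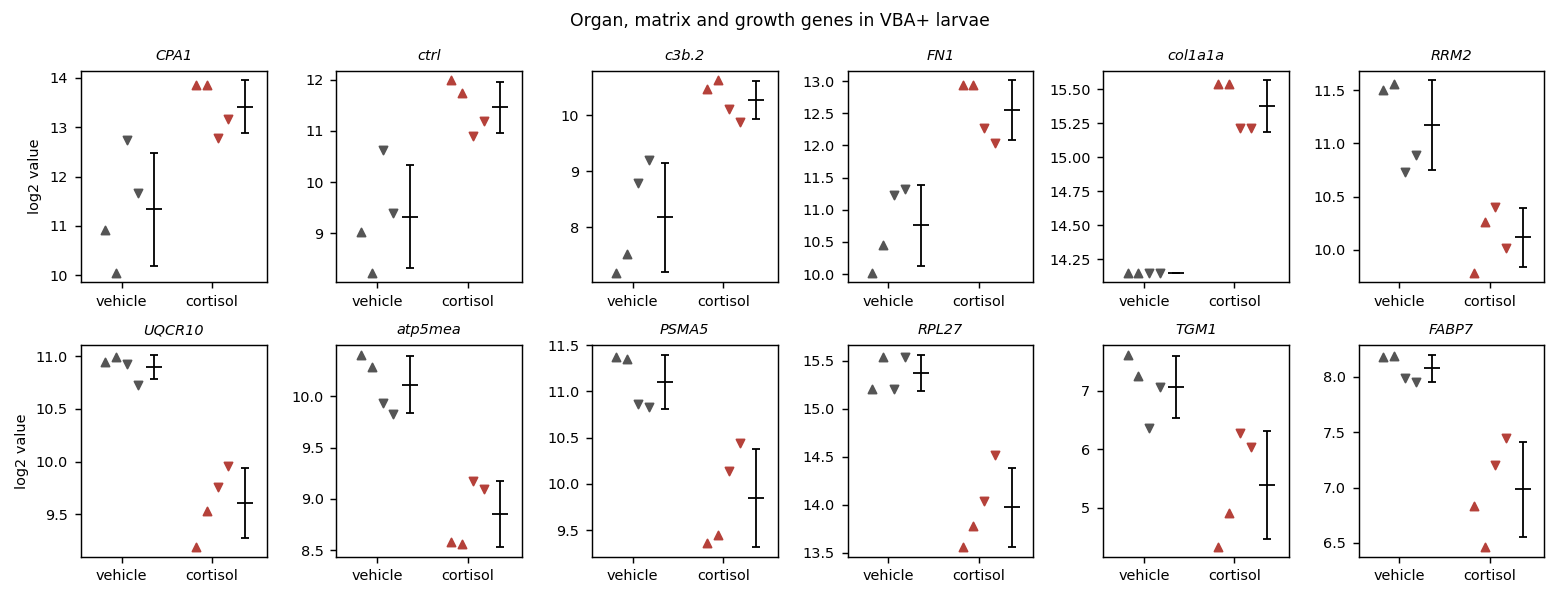
Deposited log2 values of 12 genes in VBA+ larvae, 1 point per library (upward triangles replicates 1 and 2, downward triangles replicates 3 and 4), with the mean and SD (n = 4) to the right of each group. Genes of pancreas (CPA1, ENSDARG00000021339, and ctrl), liver (c3b.2) and matrix (FN1, col1a1a) are higher in cortisol, those of the cell cycle, respiratory chain, proteasome, ribosome, skin and radial glia are lower, and the gap is wider in replicates 1 and 2 for most; axes do not start at 0.

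The most uniform falls were in genes of the mitochondrial respiratory chain, which passes electrons to oxygen and makes ATP. Of 91 genes tested 45 were called lower and none higher, 88 had a negative fold change, and 25 of the 45 were called in every fit that left out a library. Groups did not overlap for 77 genes that were lower in cortisol, against 11.8% of all genes and 2146 of the 13724 with a mean of at least 75. Without cortisol replicate 2, 27 were called lower, against 1.46% of all genes and 314 of those 13724. The level of the list was -0.65, -0.61, -0.42 and -0.35 in cortisol replicates 1 to 4 and between -0.02 and 0.03 in vehicle. The median of -0.50 was -0.64 in replicates 1 and 2 and -0.37 in replicates 3 and 4. Subunits of several complexes were among the largest falls. UQCR10 (ENSDARG00000104517), of complex III, was at 10.94, 10.996, 10.93 and 10.73 in vehicle and 9.19, 9.53, 9.76 and 9.96 in cortisol, a change of -1.29 ± 0.15 (limma adjusted p = 0.00444). atp5mea (ENSDARG00000078113), of the ATP synthase, was at 10.41, 10.29, 9.93 and 9.83 in vehicle and 8.59, 8.57, 9.17 and 9.10 in cortisol, a change of -1.26 ± 0.17 (limma adjusted p = 0.00761). ndufc1 (ENSDARG00000103101) and NDUFS5 (ENSDARG00000006290), of complex I, changed by -1.03 ± 0.16 and -1.02 ± 0.20 (limma adjusted p = 0.00958 and 0.0159).

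Proteasome genes, whose products degrade ubiquitin-tagged proteins, fell in the same way. Of 50 genes tested 22 were called lower and 1 higher, and 15 of the 22 were called in every fit that left out a library. PSMA5 (ENSDARG00000003526), of the core particle, was at 11.37, 11.35, 10.86 and 10.83 in vehicle and 9.36, 9.44, 10.14 and 10.44 in cortisol, a change of -1.26 ± 0.24 (limma adjusted p = 0.014). PSMD10 (ENSDARG00000015628) and PSMD8 (ENSDARG00000020454), linked to assembly and to the lid of the regulatory particle, changed by -1.15 ± 0.21 and -0.96 ± 0.13 (limma adjusted p = 0.0126 and 0.00753). PSMB4 (ENSDARG00000054696), of the core particle, changed by -0.81 ± 0.13 (limma adjusted p = 0.0103). The member that rose was a copy of PSME4 (ENSDARG00000087911), which encodes the alternative activator PA200. It was at 7.56, 8.10, 7.64 and 7.91 in vehicle and 8.71, 8.66, 9.04 and 8.52 in cortisol, a rise of 0.93 ± 0.15 (limma adjusted p = 0.0103) called in each of those fits. The other PSME4 copy, ENSDARG00000018742, differed by 0.14 ± 0.11 (limma adjusted p = 0.385).

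Cell cycle genes were lower too, with 14 of 45 called lower and none higher and 43 of 45 negative. Its level was between -0.54 and -0.33 in cortisol and between -0.12 and 0.11 in vehicle. RRM2 (ENSDARG00000078069), the ribonucleotide reductase subunit that supplies deoxynucleotides in S phase, was at 11.50, 11.56, 10.73 and 10.89 in vehicle and 9.78, 10.26, 10.41 and 10.01 in cortisol, a change of -1.05 ± 0.20 (limma adjusted p = 0.014). RPA3 (ENSDARG00000002613), of the single-strand DNA binding complex, changed by -0.82 ± 0.15 (limma adjusted p = 0.0131). CCNE2 (ENSDARG00000098529), a cyclin of S phase entry, changed by -0.81 ± 0.18 (limma adjusted p = 0.0211), and aurka (ENSDARG00000012485), a mitotic kinase, by -0.80 ± 0.22 (limma adjusted p = 0.0368). Of the 14, 5 were called in every fit that left out a library.

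Several lists of genes for making ribosomes and proteins had negative medians. Cytosolic ribosomal proteins had 19 of 82 called lower and none higher, with a median of -0.30, and 7 of the 19 were called in every fit that left out a library. RPL27 (ENSDARG00000015128), of the large subunit, was at 15.21, 15.54, 15.21 and 15.54 in vehicle and 13.56, 13.78, 14.04 and 14.52 in cortisol, a change of -1.40 ± 0.18 (limma adjusted p = 0.00652). RPL11 (ENSDARG00000043509), also of the large subunit, was at 15.54, 15.54, 14.84 and 14.69 in vehicle and 13.48, 13.23, 14.15 and 14.15 in cortisol, a change of -1.40 ± 0.25 (limma adjusted p = 0.0126). Both were among the 10 largest falls without overlap. Ribosome biogenesis had 12 of 69 called lower and none higher, with a median of -0.31, and nop16 (ENSDARG00000044402) at -0.68 ± 0.11 (limma adjusted p = 0.00984) was the only one called in every such fit. Translation factors had 5 of 64 called lower (7.81%) and none higher, and 20 of the 64 had a positive fold change. The share called lower was 4.66% of all genes tested and 7.35% of those with a mean of at least 75, which 61 of the 64 reached. The 5 translation factors called lower included EIF3F (ENSDARG00000077533), an initiation factor subunit, at -0.65 ± 0.09 (limma adjusted p = 0.0079). Of aminoacyl-tRNA synthetases and their partners 22 of 42 symbols were matched, and 2 of 22 genes were called lower (9.09%). The share called lower was 4.66% of all genes tested and 7.35% of those with a mean of at least 75, which 21 of the 22 reached. The 2 were AIMP1 (ENSDARG00000060036) at -0.53 ± 0.09 and YARS1 (ENSDARG00000035913) at -0.52 ± 0.10 (limma adjusted p = 0.0117 and 0.0143). Neither was called in every fit that left out a library. eif5a (ENSDARG00000017235), an elongation factor, differed by 0.23 ± 0.07 (limma adjusted p = 0.0534).

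Chaperone and stress lists had few calls. Of 65 heat shock and chaperone genes 5 were called lower (7.69%, against 4.66% of all genes tested) and 1 higher. A mean of 75 was reached by 54 of the 65. The chaperonin subunits cct2 (ENSDARG00000087206) and CCT7 (ENSDARG00000007385) changed by -0.64 ± 0.09 and -0.52 ± 0.10, and PTGES3 (ENSDARG00000089626), a co-chaperone of HSP90 and the GR, by -0.52 ± 0.09 (limma adjusted p = 0.00834, 0.0146 and 0.0109). HSP90AB1 (ENSDARG00000029150), the chaperone that holds the unliganded GR, was at 14.69, 14.69, 14.84 and 14.84 in vehicle and 16.13, 15.54, 15.21 and 15.21 in cortisol, a rise of 0.75 ± 0.18 (limma adjusted p = 0.0253). In the list of ER stress and amino acid response 4 of 41 genes were called lower (9.76%, against 4.66% of all genes tested) and 1 higher (2.44%, against 3.68%). PHGDH (ENSDARG00000001873), PSAT1 (ENSDARG00000016733) and PSPH (ENSDARG00000040314), the enzymes that make serine from a glycolytic intermediate, changed by -0.75 ± 0.15, -0.65 ± 0.14 and -0.63 ± 0.11 (limma adjusted p = 0.017, 0.0187 and 0.0116), with no overlap between groups.

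Among genes of the skin, those called in the epidermis and barrier list were lower and those called in the list of ionocytes, its ion-transporting cells, were higher. In the list of epidermis and barrier genes 11 of 72 were called lower and none higher, but the median was -0.50 in replicates 1 and 2 and 0.00 in replicates 3 and 4, and 2 were called in every fit that left out a library. TGM1 (ENSDARG00000101407), the transglutaminase that cross-links the barrier in mammals, was at 7.62, 7.25, 6.36 and 7.07 in vehicle and 4.33, 4.91, 6.29 and 6.05 in cortisol, a change of -1.68 ± 0.42 (limma adjusted p = 0.0294). Cortisol replicate 3 lay just below vehicle replicate 3. icn2 (ENSDARG00000055514), a calcium binding protein of the surface layer, changed by -1.15 ± 0.23 (limma adjusted p = 0.0163), and cldn1 (ENSDARG00000040045), a tight junction protein, by -0.92 ± 0.26 (limma adjusted p = 0.0429). Ionocyte genes had 10 of 43 called higher and none lower, 3 of the 10 in every fit that left out a library, and the list's level was between 0.24 and 0.52 in cortisol and between -0.12 and 0.06 in vehicle. RHCG (ENSDARG00000003203), an ammonia transporter of acid-secreting ionocytes, was at 8.73, 8.58, 7.77 and 8.78 in vehicle and 9.32, 9.49, 9.86 and 10.16 in cortisol, a rise of 1.24 ± 0.24 (limma adjusted p = 0.0146). A second RHCG copy, ENSDARG00000100265, rose by 0.82 ± 0.18 (limma adjusted p = 0.0197), and SLC4A2 (ENSDARG00000028173), an anion exchanger, by 0.81 ± 0.19 (limma adjusted p = 0.0271).

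In pigment cells 5 of 52 genes were called in each direction (9.62%), and 42 of the 52 reached a mean of 75. Among all genes tested, 3.68% were higher and 4.66% lower. gch2 (ENSDARG00000099101), of pteridine synthesis in xanthophores, changed by -0.89 ± 0.15 (limma adjusted p = 0.0109), and TYRP1 (ENSDARG00000029204), of melanin synthesis, by -0.57 ± 0.14 (limma adjusted p = 0.0261). XDH (ENSDARG00000055240), which acts in purine and pteridine metabolism, rose by 1.29 ± 0.21 (limma adjusted p = 0.0106), and ALX4 (ENSDARG00000088332), a homeobox factor, by 0.66 ± 0.12 (limma adjusted p = 0.0123). In the erythroid and vascular list 2 of 42 genes were called in each direction (4.76%), and 28 of the 42 reached that mean. hbae1.3 (ENSDARG00000089124), an alpha globin, changed by -0.73 ± 0.15 (limma adjusted p = 0.017), and FLT4 (ENSDARG00000104453), the receptor for lymphatic growth signals, rose by 0.75 ± 0.21 (limma adjusted p = 0.0389).

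Inflammatory and innate immune genes did not move as a group, with a median of 0.03. Of 121 symbols in the list 96 were matched. Of 89 genes tested 4 were called higher (4.49%, against 3.68% of all genes tested) and 1 lower (1.12%, against 4.66%). Only 38 of the 89 reached the mean count needed for a call, and among all genes that reached it 5.81% were higher and 7.35% lower. Besides SOCS3, described above, its relative SOCS1 (ENSDARG00000038095) rose by 0.88 ± 0.24 (limma adjusted p = 0.0368), from log2 values of 6.13, 5.70, 5.59 and 5.98 in vehicle to 6.15, 6.49, 7.03 and 7.23 in cortisol. csf1ra (ENSDARG00000102986), a receptor of macrophages and xanthophores, rose by 0.69 ± 0.14 (limma adjusted p = 0.0185), and RAG1 (ENSDARG00000052122), a recombinase of developing lymphocytes, by 0.66 ± 0.19 (limma adjusted p = 0.0423). The chemokine gene ccl34b.1 (ENSDARG00000093608) changed by -1.1 ± 0.25 (limma adjusted p = 0.0241), with -1.83 and -0.37 in the first and last pairs of replicates.

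Lipid genes were called higher in 6 and lower in 6 of 73 cases (8.22% each), and 55 of the 73 reached a mean of 75. Among all genes tested, 3.68% were higher and 4.66% lower. HSD17B7 (ENSDARG00000088140) and IDI1 (ENSDARG00000019976), both of cholesterol synthesis, changed by -0.90 ± 0.15 and -0.57 ± 0.13 (limma adjusted p = 0.011 and 0.022), and FABP3 (ENSDARG00000023290), a fatty acid carrier of muscle and heart, by -0.77 ± 0.13 (limma adjusted p = 0.011). SREBF1 (ENSDARG00000067607), a transcription factor of lipid synthesis, rose by 0.65 ± 0.12 (limma adjusted p = 0.0147). LPL (ENSDARG00000087697), the lipase that frees fatty acids from lipoproteins, was at 10.13, 10.57, 10.49 and 10.55 in vehicle and 11.03, 10.99, 11.23 and 11.16 in cortisol, a rise of 0.67 ± 0.11 (limma adjusted p = 0.0106) with 0.67 in both pairs of replicates. In the list of chromatin regulators 4 of 92 genes were called higher (4.35%) and none lower. The share called higher was 3.68% of all genes tested and 5.81% of those with a mean of at least 75, which 89 of the 92 reached. NCOR1 (ENSDARG00000035285), a corepressor of nuclear receptors, rose by 0.50 ± 0.12 (limma adjusted p = 0.0284).

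Several of the largest changes were in genes whose role the sources used here do not give. ENSDARG00000077872 was at 6.67, 7.05, 9.39 and 9.55 in vehicle and 10.89, 11.23, 10.66 and 10.43 in cortisol, a rise of 2.64 ± 0.59 (limma adjusted p = 0.0224). si:dkey-22f5.9 rose by 2.07 ± 0.23 (limma adjusted p = 0.00444), with all cortisol libraries between 6.76 and 7.24 and all vehicle libraries between 4.47 and 5.56. Among falls, zgc:171772 was at 15.54, 15.21, 15.54 and 15.21 in vehicle and 13.48, 13.48, 14.15 and 14.15 in cortisol, a change of -1.56 ± 0.17 (limma adjusted p = 0.00444). si:ch211-255p10.3 had the largest fall without overlap, -1.72 ± 0.32 (limma adjusted p = 0.013), and was at -2.66 and -0.78 in the first and last pairs of replicates. LSM2 (ENSDARG00000070867), of the complex that binds U6 RNA in splicing, changed by -1.47 ± 0.25 (limma adjusted p = 0.0109).

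The same treatment was given to VBA- siblings, which are homozygous for GR369-, with 4 pools in cortisol and 4 in vehicle. None of 21693 genes tested there was called with limma (0.0%), 388 had an unadjusted p under 0.05, against 7526 in VBA+, and none was called with a replicate block or with each VBA- library left out. A count of 0 does not show an absence of effect, and the paper describes the cortisol-treated VBA- pools as widely dispersed. The paper also reports npas4a, egr1, egr4, fosab and ier2b as raised by cortisol in VBA- larvae. In these VBA- pools NPAS4 (ENSDARG00000055752) differed by 1.78 ± 0.24, egr4 by 1.54 ± 0.19 and FOS by 1.36 ± 0.29. ier2b differed by 1.07 ± 0.17 and egr1 by 1.03 ± 0.20. The difference of the cortisol effect between the genotype classes, fitted as an interaction over all 16 libraries, was called for 1 of 21686 genes (0.00461%), actb2, a cytoplasmic actin on the shared steps described above, and for none with most single libraries left out. No list member named above therefore passed a test of that difference. As a description, the VBA+ calls had a median log2 fold change of 0.71 (higher) and -0.66 (lower) in VBA+, and 0.07 and -0.14 in VBA-. These genes were selected by their size in VBA+, which by itself enlarges the VBA+ medians, so the gap does not measure a genotype difference. Of 797 genes called higher in VBA+, 497 had a positive fold change in VBA-, and of 1009 called lower 869 had a negative one. Over all 21644 genes tested in VBA+, 10158 had a positive fold change in VBA-. Immediate early genes kept a median of 0.39 in VBA- beside 0.60 in VBA+, pancreatic enzymes 0.67 beside 1.04, and glucocorticoid targets 0.24 beside 0.47. Liver plasma proteins had -0.24 beside 0.57, and synaptic adhesion genes -0.03 beside 0.48. The respiratory chain had -0.16 beside -0.50 and the proteasome -0.22 beside -0.48.

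**Figure D5:**
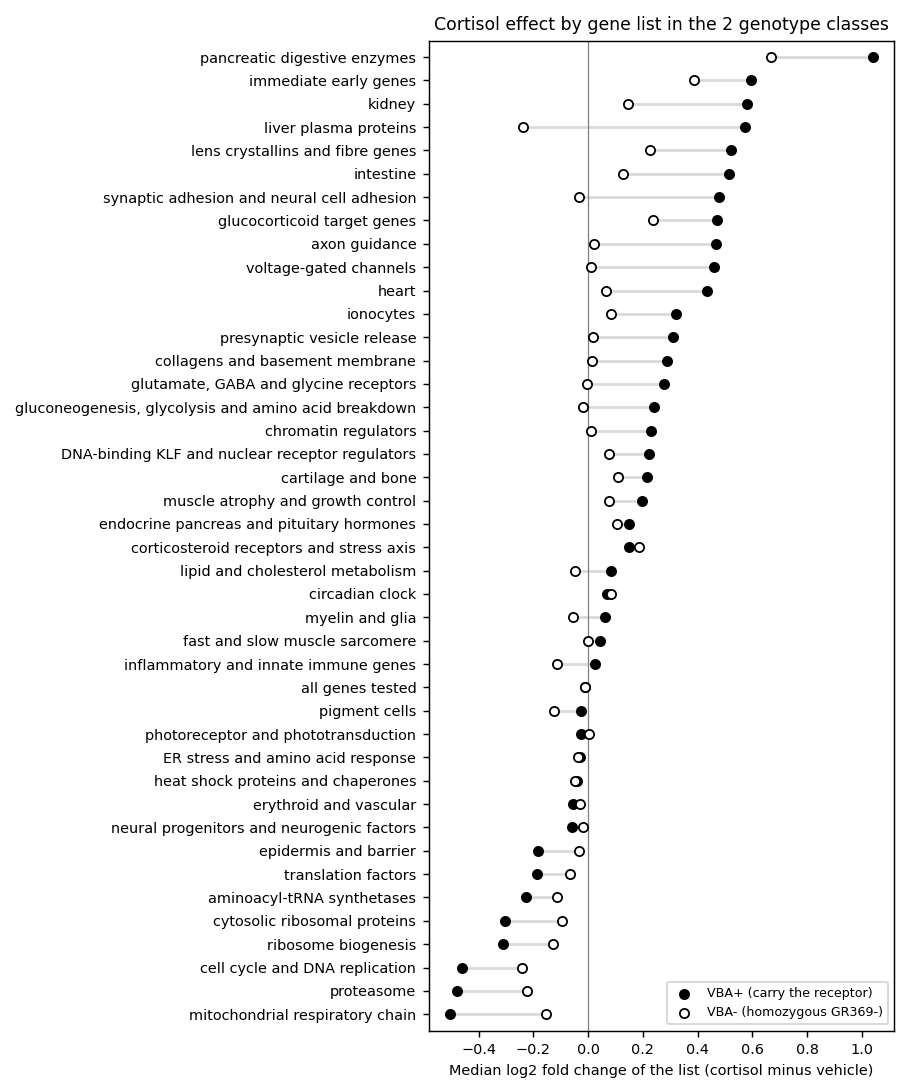
Median log2 fold change (cortisol minus vehicle) of each gene list in VBA+ larvae (filled circles, 4 against 4 libraries) and in VBA- larvae (open circles, 4 against 4 libraries), over the genes tested in VBA+. Medians in VBA- lie nearer to 0 for most lists, with pancreatic enzymes (0.67) and immediate early genes (0.39) highest; the differences were tested per gene only, and 1 gene passed.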

How the data were processed

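RNA from pools of whole larvae was sequenced by the authors, and 8 VBA+ libraries (4 cortisol, 4 vehicle) were compared, with 8 VBA- libraries used for the genotype comparison. Reads were trimmed (Trimmomatic 0.36 per the submitters' processing notes, where the study's methods give another version) and, per the study's methods, aligned to GRCz11 with STAR 2.6.1b and quantified with RSEM 1.3.0. The authors then corrected GC content within libraries and applied full quantile normalization between libraries in EDASeq (R 3.6.1), and tested with DESeq2 1.24.0. The values the authors deposited are log2 of the normalized count plus 0.1. The normalized counts are whole numbers, but quantile normalization removed the library totals, so depth is unknown, counting error cannot be given and a count model was not used.

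Genes whose normalized counts averaged 5 or more were tested with limma 3.58.1 (R 4.3.3; eBayes with trend), with Benjamini-Hochberg adjustment over all genes tested. A call needed an adjusted p of at most 0.05, a log2 fold change of at least 0.5 in size, an SE below 1 and a mean of at least 75. The genotype difference was an interaction over 16 libraries. The procedure was tested on simulated data. Tables and plots used Python 3.11.15, pandas 2.3.3 and matplotlib 3.10.9.

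Gene symbols are as deposited, many in human form, and 21794 of 22994 gene IDs had one. Of 2451 symbols in 41 lists and the fixed genes, 2177 were matched, 1642 exactly, 534 without the letter that marks a copy and 1 by synonym (fosab to FOS). Copies that share a symbol are told apart by ID. Named genes were 15 fixed genes, the 10 largest rises and 10 largest falls without overlap, up to 4 called members of each list in each direction and, in a list with none, the 2 smallest p. Exceptions are marked. Members and lists were chosen with earlier results of these data known. Alternatives were the pseudocount, both limits on the mean, the trend, library weights, all 16 libraries, a replicate block, a term for replicates 1 and 2, centring, each library left out and each pair of replicates. Sequences were not used here. Some members of the lists are not reported here.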

Additional observations from a re-analysis of the deposited data

Results flagged for a closer look

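In a group of 4 libraries, the gap between an end value and its neighbour was divided by the group's range, and 9 of 462 groups examined exceeded Dixon's limit, which chance does in about 1 in 20. The vehicle group was flagged for PER1 (ENSDARG00000012499) at 0.83, RPL38 at 1.0, gabbr1b at 0.912, LPL at 0.836 and IGF1R at 0.938. The cortisol group was flagged for lgals4 at 0.89, pvalb3 at 0.857, EIF2B1 at 0.844 and the median of the list of gluconeogenesis, glycolysis and amino acid breakdown at 0.898. For RPL38 the value of 1.0 means that the other 3 vehicle libraries were equal.

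The cortisol effect on actb2 differed between the genotype classes, with an interaction of -0.76 on the log2 scale (limma adjusted p = 0.0241). actb2 was at 16.13 in all 4 VBA+ vehicle libraries and at 16.89, the next step of the quantile normalization, in the other 12 libraries. TNNT3 (ENSDARG00000068457) held the step of 16.89 in the VBA+ vehicle libraries and 16.13 in VBA+ cortisol. The part of the shared steps in this result was not tested.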

How the results depend on the processing

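The count of 1806 called genes (797 higher, 1009 lower) stayed within 1.5 times with pseudocounts of 1 (1813) and 5 (1804), no filter (1444), a limit on the mean of 5 (2254), a term for replicates 1 and 2 against 3 and 4 (1888) and centring (1806). It was 635 (195 higher, 440 lower) without the trend, 2790 (1320 higher, 1470 lower) with library weights, 21 (19 higher, 2 lower) with all 16 libraries in the fit, 4651 (2246 higher, 2405 lower) within replicates 1 and 2 and 38 (30 higher, 8 lower) within replicates 3 and 4. Leaving out each library in turn gave 437 to 2945 calls (122 to 1372 higher, 315 to 1573 lower). The causes were not tested. The interaction gave 0 to 1 calls with each library left out, and VBA- gave 0 in every fit run. No named gene changed sign as a called value. Of 177 named genes that were called, 64 to 170 stayed called with a VBA+ library left out, 8 with all 16 libraries and 14 within replicates 3 and 4. Of 30 lists with a median of at least 0.1 in size, all kept its sign in every alternative except within replicates 3 and 4, where 25 did. The limits on the mean and the trend do not enter a gene's fold change. In this balanced design, neither do the replicate block, the term for pairs of replicates or the fit to all 16 libraries. A sign could not change in these, whether of a list or a named gene. Centring could move libraries of identical distribution little. The sign could change with the pseudocounts, library weights, libraries left out and pairs of replicates. Depth is unknown, so precision at low values could not be judged.

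Same-numbered libraries did not deviate together: the correlations of their deviations across genes were -0.13, -0.04, -0.08 and -0.12, so the numbers do not pair the samples. With the replicate number as a block, 7 genes were called (7 higher, 0 lower), the interaction gave 0 and VBA- gave 0.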

Other observations

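The genes named here were chosen after their values were seen. A fit to all 16 libraries called 21 genes, 19 higher and 2 lower, and 7 genes were called there, within replicates 3 and 4 and in all 8 fits that left out a VBA+ library. These were FOS, egr1, ier2b, DUSP1, SIK1, G6PC1 and actb2. FOS, egr1 and ier2b are early response genes, and DUSP1 encodes a MAP kinase phosphatase, SIK1 a kinase induced by cAMP, G6PC1 a glucose-6-phosphatase and actb2 a cytoplasmic actin. The 2 lower genes were COX4I1, of the respiratory chain, and CAPN3, a muscle protease.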
